A study of Eonycteris spelaea and Mus musculus with 51 samples.

Results

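Small nucleolar RNAs (snoRNAs) were followed across blood, skeletal muscle and lung of mice given whole-animal heat shock. The rows described here are those of the mouse gene count table whose symbol begins with Snora or Snord and a number and whose counts, summed over the 24 mouse libraries, reached 30, with the Snord14e row left out. Of 40840 rows in the table, 138 had such a name and 100 were kept. The 100 rows are 67 box C/D rows (Snord symbols) and 33 box H/ACA rows (Snora symbols). The rows were chosen by their summed counts, so the order of their totals is a description and not a finding. Snora36b, with 33 summed counts, and Snord88a, with 38, lay just inside the minimum. Snord87, with 27, and Snord61 and Snord1b, with 25 each, lay just outside it. Of the rows left out, 37 were under the minimum, and 27 of those held no count in any library.

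Box C/D snoRNAs pair with ribosomal or spliceosomal RNA and direct the 2′-O-methylation of a nucleotide by the methyltransferase fibrillarin (Fbl). Box H/ACA snoRNAs direct the conversion of uridine to pseudouridine by dyskerin (Dkc1). A small number of snoRNAs, such as U3, U8, U14, U17 and U22, are instead needed for cuts that release the mature ribosomal RNAs from their precursor. Most mammalian snoRNAs lie inside introns of host genes, many of which encode ribosomal proteins or translation factors, and are trimmed out of the excised intron, whereas U3, U8 and U13 have promoters of their own. Heat shock is known to raise transcription of chaperone genes, and some of these, Hspa8 among them, are snoRNA hosts.

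The mouse libraries come from 3 groups in each tissue. Heat animals were sampled right after 1 h of heat shock to the living animal, recovery animals 4 h after a heat shock of 1 h, and control animals at baseline before any treatment. Lung and muscle have 3 libraries a group, and blood has 2 (replicates 1 and 2 in heat and in recovery, 1 and 3 in control). Strain, sex and age are not given in the sources used here, and neither is the temperature. No group was sampled at the later times without heat, so heat, handling and elapsed time cannot be told apart. The labels number the replicates without saying that they are separate animals, so p-values measure the spread between these libraries. In these bulk tissues, fewer cells of a type and less RNA per cell cannot be told apart.

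Libraries held 17.1 to 27.4 M counts in lung, 26.3 to 37.2 M in muscle and 32.5 to 54.5 M in blood. The snoRNA rows together took only 1245 to 2047 of these counts per lung library, 780 to 1552 per muscle library and 1198 to 2458 per blood library. A row with 10 counts has an exact 95% Poisson interval of 4.80 to 18.4, which covers counting error only, and many rows sit near that level. Levels are given as CPM, counts over the library total as edgeR corrects it by a trimmed mean of log ratios (TMM) and set to the usual common scale. Surfactant and other lung epithelial markers summed to 7870 to 9176 CPM in lung and to at most 8.88 CPM elsewhere, and skeletal muscle markers to 58118 to 123377 CPM in muscle. In muscle, B cell markers summed to 1.38 to 11.4 CPM in heat, 0.410 to 165 in recovery and 30.05 to 97.6 in control, and the highest recovery value was that of replicate 1.

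Sequences are shown for Snord14c, Snord14d and Snora15, which rose with heat in lung, for Snord14a as another copy of U14, for Snora31 and Snora28, which were lower in recovery lung than in heat lung, and for U8 (Snord118), which differed between tissues. Each sequence is the sense strand of the GENCODE M21 transcript (build GRCm38), 5′ to 3′. Capitals mark the box C motif TGATGA and the last box D motif CTGA in Snord rows, and the ACA motif near the 3′ end in Snora rows. No coordinates are given because the counts were made on another build.
Snord14c: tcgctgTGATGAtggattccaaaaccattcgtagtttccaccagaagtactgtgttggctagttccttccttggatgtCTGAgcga
Snord14d: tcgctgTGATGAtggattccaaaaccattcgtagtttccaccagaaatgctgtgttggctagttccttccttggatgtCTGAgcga
Snord14a: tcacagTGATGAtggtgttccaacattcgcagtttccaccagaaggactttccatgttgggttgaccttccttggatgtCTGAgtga
Snora15: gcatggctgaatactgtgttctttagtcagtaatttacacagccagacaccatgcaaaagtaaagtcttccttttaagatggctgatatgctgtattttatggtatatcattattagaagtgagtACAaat
Snora31: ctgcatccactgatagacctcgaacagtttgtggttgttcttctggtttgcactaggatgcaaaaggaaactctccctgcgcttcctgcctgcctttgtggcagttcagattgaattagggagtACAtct
Snora28: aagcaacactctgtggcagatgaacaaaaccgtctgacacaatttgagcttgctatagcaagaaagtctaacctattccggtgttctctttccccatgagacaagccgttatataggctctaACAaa
Snord118: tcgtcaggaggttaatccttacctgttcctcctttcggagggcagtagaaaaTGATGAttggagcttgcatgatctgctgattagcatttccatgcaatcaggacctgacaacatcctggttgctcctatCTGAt

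Snord14c and Snord14d are copies of U14 on chromosome 9, in the host gene Hspa8, which encodes the constitutive HSP70 chaperone. Over their 86 bases they differ by G47A and A49G, where the Snord14c base comes first, positions count from 1 at the 5′ end, and the Snord14d base comes last. Snord14a, another U14 copy, lies on chromosome 7 in Rps13, a small-subunit ribosomal protein gene, and is 79.1% identical to Snord14c in an alignment. How reads that match more than 1 place were counted is not stated, so reads of the Hspa8 copies could be split between them, counted at each copy or lost. Snora15 lies on chromosome 5 in Cct6a, a subunit of the chaperonin that folds actin and tubulin. Snora31 lies on chromosome 14 in Tpt1, which encodes translationally controlled tumour protein, and Snora28 on chromosome 12 in Eif5, a translation initiation factor gene. Snord118 lies on chromosome 11 with no host named.

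Of the 100 rows, 92 matched 1 M21 transcript by symbol, 2 (Snora16a and Snora43) matched 2, and 6 matched none, the 4 Snord3 rows among them. Lengths were 64 to 238 bases in box C/D rows (median 81, n = 61) and 127 to 205 in box H/ACA rows (median 132, n = 31). The motif search read the sense strand of the matched transcripts. TGATGA lay within the first 25 bases of 38 of 60 box C/D rows searched (63.3%), against 21.4% of all 1558 snoRNA transcripts of the annotation, which mix both classes. In Snord118 the same letters start at base 53. CTGA lay within the last 15 bases of 55 of 60 box C/D rows (91.7%, against 30.9% of all 1558), and it can overlap no TGATGA match because the ends are apart. ACA lay within the last 8 bases of 29 of 31 box H/ACA rows (93.5%, against 47.6% of all 1558). These letters go with the class names and say nothing of activity.

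A host gene present in the table was named for 84 rows, and these share 66 hosts, so rows of the same host are not independent. Ribosomal protein genes hosted 28 of the rows. Of 88 rows that lie inside a longer gene on the same strand, 41 overlapped an annotated exon of the longest such gene. Snord14c, Snord14d, Snora15 and Snora28 were among these. The other 47 overlapped none, Snora31 among them. The strand setting of the counting is not stated, and the libraries were not selected for small RNA, so reads of the mature snoRNA, of an unspliced or retained host intron and of an antisense gene (which overlapped 7 rows) cannot be told apart. Every value below is therefore a value of the counted row.

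The box C/D rows held 21728 counts, 58.4% of the counts of the 100 rows, and the box H/ACA rows 15471, or 41.6%. The 10 largest rows held 40.5%. Snora28 had the most counts, 2591 over the 24 libraries, and the median row had 235.5 (199 in box C/D and 299 in box H/ACA). In 55 rows every library had at least 1 count. On the level scale the highest box C/D rows, by mean over the 24 libraries, were Snord17 at 3.80 CPM, Snord3b3 at 2.81, Snord3b2 at 1.75, Snord14d at 1.68 and Snord3b4 at 1.60. Snord17 lies in Snx5, a sorting nexin gene, and the Snord3 rows are copies of U3 whose counts may share reads. The highest box H/ACA rows were Snora28 at 3.96 CPM, Snora73b at 2.67, Snora81 at 1.94, Snora73a at 1.52 and Snora30 at 1.495. Snora73a and Snora73b are copies of U17 in Rcc1, the exchange factor for Ran, and Snora81 and Snora30 lie in Eif4a2, an RNA helicase of translation initiation, and in Srcap, a chromatin remodelling ATPase. Per length the order changed: Snora28 led at 31.2 CPM per kb, followed by Snord14d at 19.6, Snord96a at 17.4, Snord17 at 15.98, Snora73b at 13.0 and Snord14c at 11.9. The classes were alike on that scale, with a median level of 3.25 CPM per kb in box C/D rows (0.629 to 19.6, n = 61) and 3.29 in box H/ACA rows (0.357 to 31.2, n = 31).

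Summed over each class, the levels moved less with heat than single rows did. Box C/D rows summed to 27.3 ± 6.73 CPM in heat lung and 21.8 ± 0.951 in recovery lung, against 20.9 ± 2.44 in control lung (SD, n = 3 each). In muscle the sums were 22.5 ± 5.32 CPM in heat and 23.3 ± 5.997 in recovery, against 22.8 ± 0.725 in control. In blood they were 67.4 ± 1.56 CPM in heat and 54.98 ± 6.96 in recovery, against 75.1 ± 12.5 in control (n = 2 each). The spread of the heat and recovery groups covers most of these differences, and blood stands above the solid tissues in every condition on this scale. Snord14d and Snord14c weigh on the box C/D sums. They stood at 4.59 and 2.69 CPM in heat lung, against 0.226 and 0.199 in control, and the lung sum rose no more than they did. In heat muscle they stood at 5.22 and 3.32 CPM, against 0.393 and 0.267 in control. The near-equal muscle sums therefore hide a lower sum of the other box C/D rows in heat. Box H/ACA rows summed to 20.5 ± 1.71 CPM in heat lung and 17.1 ± 0.526 in recovery lung, against 18.2 ± 0.532 in control lung. The muscle sums were 20.9 ± 2.57 CPM in heat and 20.7 ± 3.16 in recovery, against 19.4 ± 1.47 in control, and the blood sums 36.7 ± 2.17 CPM in heat and 32.3 ± 3.06 in recovery, against 33.5 ± 3.72 in control. The order of the tissues depends on the scaling. As plain CPM, counts divided by the library total with no TMM factor and averaged over the tissue, box C/D rows took 36.3 in blood, 19.3 in muscle and 43.3 in lung, and box H/ACA rows 18.5 in blood, 16.9 in muscle and 34.6 in lung. The TMM factors behind the first scale were 0.400 to 0.730 in blood, 0.669 to 1.04 in muscle and 1.72 to 1.94 in lung. Hbb-bs, a beta-globin gene, took 17.3 to 25.2% of the blood counts, and Ttn, the titin gene, 14.9 to 19.7% of the muscle counts.

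**Figure D1:**
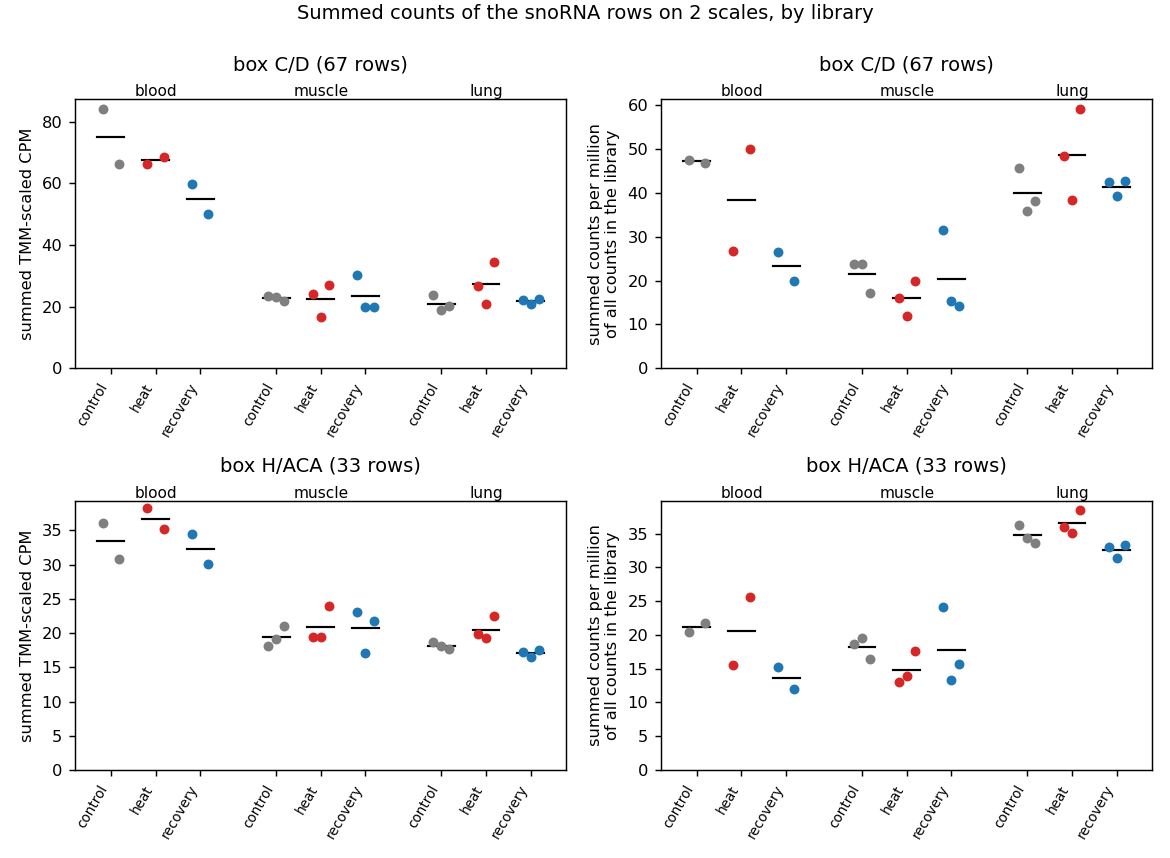
Summed counts of the 67 box C/D rows (top) and the 33 box H/ACA rows (bottom) by tissue and condition, as TMM-scaled CPM (left) and as plain CPM of the library total (right). Points are libraries and bars are group means. Blood is highest on the left scale, while lung is highest for box H/ACA rows on the right scale.

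Heat shock changed few of the snoRNA rows tested in lung, and those called higher are the U14 copies inside Hspa8 and Snora15 inside Cct6a. Of the 100 rows, 55 passed the filter on low counts there. Of these, 3 rose and 0 fell in heat against control. The test was edgeR's quasi-likelihood F test, adjusted by Benjamini-Hochberg over the 19438 rows tested and called at an adjusted p under 0.05. Among all rows tested, 3.14% rose and 2.72% fell, 5.85% in either direction, so the share of snoRNA rows called was close to that of the table. The rows that rose were 2 of 32 box C/D rows and 1 of 23 box H/ACA rows. The median log2 change of the 55 rows was 0.02, against -0.01 over all rows. The heat and control values did not overlap in 8 rows that were higher and 3 that were lower in heat, 11 of the 55, against 27.2% of all rows. With 1 library left out at a time, 0 to 6 snoRNA rows were called (0 without control 1 or control 3, 1 without heat 1 or control 2, 6 without heat 2), and 0 were called when only the heat and control libraries entered the fit.

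Snord14d held 159, 55 and 258 counts in the heat lung libraries and 7, 4 and 9 in recovery, against 9, 13 and 2 in control. Every heat library was above every other lung library, and the heat libraries themselves spread over several-fold. The level was 4.59 ± 3.80 CPM in heat and 0.226 ± 0.175 in control (SD, n = 3 each), a log2 change of 4.42 ± 0.83 (SE) with an edgeR Benjamini-Hochberg adjusted p of 0.0217. Snord14c held 69, 36 and 164 counts in heat lung and 3, 4 and 4 in recovery, against 8, 8 and 7 in control. The groups again did not overlap. Its level was 2.69 ± 2.53 CPM in heat and 0.199 ± 0.0563 in control, a log2 change of 3.75 ± 0.67 (edgeR, Benjamini-Hochberg adjusted p = 0.0147). With the near-identical copies summed into 1 row, the log2 change in lung was 4.14 ± 0.76 (edgeR, Benjamini-Hochberg adjusted p = 0.0229). With 1 lung library left out at a time the log2 change stayed between 3.54 and 5.08 for Snord14d, called in 5 of 9 fits, and between 2.64 and 4.17 for Snord14c, called in 7 of 9.

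The U14 copies in Hspa8 were also high in heat muscle. Snord14d held 148, 58 and 176 counts in the heat muscle libraries and 8, 24 and 10 in recovery, against 13, 12 and 7 in control, a log2 change from control of 3.68 ± 0.60 (edgeR, Benjamini-Hochberg adjusted p = 0.0485). Snord14c held 92, 38 and 113 counts in heat muscle and 5, 10 and 0 in recovery, against 4, 7 and 10 in control. No heat library overlapped the others for either copy. Snord14c had a log2 change of 3.60 ± 0.86 but did not pass (edgeR, Benjamini-Hochberg adjusted p = 0.0797). In muscle, 38 of the 100 rows passed the filter, 1 rose (Snord14d) and 0 fell, while of the 17746 rows tested 0.293% rose and 0.135% fell, 0.428% in either direction. Without recovery 1, the muscle library with the highest B cell marker sum, 5 rows were called with heat. Snord14d, Snord14c and Snora15 rose, and Snord17 and Snord53 fell, at -1.04 and -1.83 (Snord53 is named after its value was seen). Without heat 1, heat 3, recovery 3 or any 1 control library, 0 were called, and the log2 change of Snord14d lay between 3.41 and 4.00 over the 9 fits. Muscle recovery 1 was not alone in its scaling. Its TMM factor was 1.04, against 1.03 in control 1, 1.03 in control 2 and 0.78 in control 3. Snord17 held 119 counts in recovery 1, 90 in control 1 and 111 in control 2, against 57 in control 3. The part of these control libraries in the fall of Snord17 was not tested.

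In blood, Snord14d held 64 and 39 counts in heat and 16 and 0 in recovery, against 16 and 16 in control. Snord14c held 49 and 19 counts in heat and 4 and 6 in recovery, against 7 and 5 in control. The heat libraries were the highest for both copies, but with 2 libraries a group neither passed. The log2 changes from control were 1.66 ± 0.97 for Snord14d and 2.46 ± 0.74 for Snord14c (edgeR, Benjamini-Hochberg adjusted p = 0.493 and 0.221). With 1 blood library left out at a time they were 1.18 to 2.03 and 1.53 to 3.03, called in 0 of 6 fits in each. Of 64 rows tested in blood, 0 were called in heat against control by edgeR, and 0 (0%) of all 15869 rows were. An unadjusted p under 0.05 was reached by 7 of the 64 rows, 5 of them higher, and by 14.8% of all rows, and DESeq2 called 0 of the 64 and 593 of all rows.

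Snord14a, the U14 copy in Rps13, gives a comparison within the family. It held 4, 10 and 5 counts in heat lung and 6, 9 and 16 in recovery lung, against 5, 6 and 4 in control lung. In muscle it held 5, 2 and 0 counts in heat and 13, 7 and 3 in recovery, against 7, 5 and 2 in control. These groups overlap, and the row passed the filter in blood only, where it held 17 and 10 counts in heat and 13 and 12 in recovery, against 6 and 11 in control. Its log2 change with heat in blood was 0.67 ± 0.59 (edgeR, Benjamini-Hochberg adjusted p = 0.670). The difference between Snord14a and the Hspa8 copies was not tested.

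**Figure D2:**
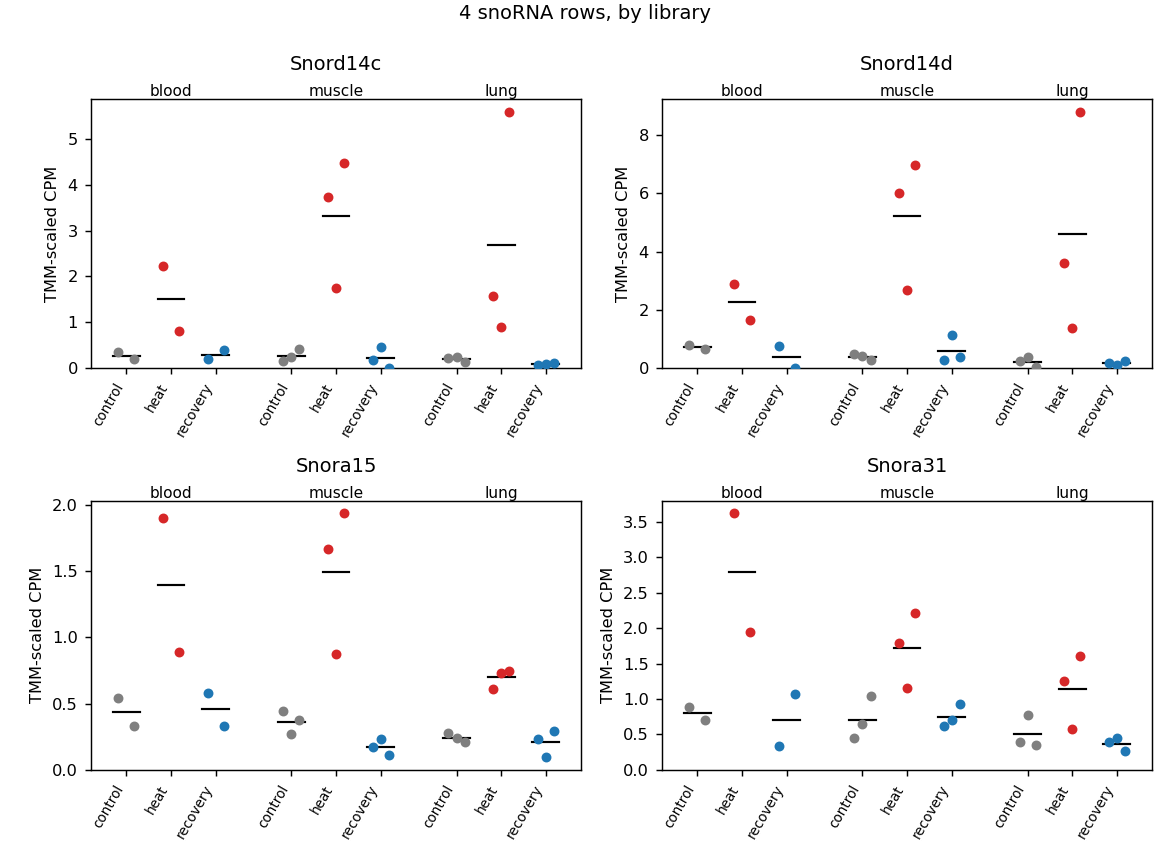
TMM-scaled CPM of Snord14c, Snord14d, Snora15 and Snora31 in each library, by tissue and condition. Points are libraries and bars are group means. In lung and muscle the heat libraries of Snord14c, Snord14d and Snora15 lie above all control and recovery libraries.

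Snora15 is a box H/ACA snoRNA, and its host Cct6a rose with heat in lung. Snora15 held 27, 29 and 22 counts in heat lung and 9, 4 and 11 in recovery, against 10, 8 and 11 in control. The heat libraries were close to each other and clear of the rest. Its level was 0.698 ± 0.0741 CPM in heat and 0.244 ± 0.0357 in control, a log2 change of 1.502 ± 0.40 that only just passed (edgeR, Benjamini-Hochberg adjusted p = 0.0499). It was between 1.39 and 1.62 with 1 lung library left out at a time, and called in 0 of those 9 fits. In muscle Snora15 held 41, 19 and 49 counts in heat and 5, 5 and 3 in recovery, against 12, 8 and 9 in control, a log2 change of 2.00 ± 0.46 (edgeR, Benjamini-Hochberg adjusted p = 0.0741). In blood it held 42 and 21 counts in heat and 12 and 5 in recovery, against 11 and 8 in control, a log2 change of 1.69 ± 0.61 (edgeR, Benjamini-Hochberg adjusted p = 0.288). The heat libraries did not overlap the control ones in any of the 3 tissues, and in the fits over the 3 groups of a tissue edgeR called the change in lung. DESeq2 called it in muscle too, as did edgeR without the muscle library recovery 1, so the tissues are not shown to differ.

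Snora31, in Tpt1, held 55, 23 and 47 counts in heat lung and 15, 18 and 10 in recovery, against 14, 26 and 18 in control. One heat library (replicate 2) lay inside the control range as raw counts, and the log2 change of 1.18 did not pass (edgeR, Benjamini-Hochberg adjusted p = 0.130). In muscle it held 44, 25 and 56 counts in heat and 18, 15 and 25 in recovery, against 12, 19 and 25 in control, a log2 change of 1.25 ± 0.41 (edgeR, Benjamini-Hochberg adjusted p = 0.114). In blood it held 80 and 46 counts in heat and 7 and 16 in recovery, against 18 and 17 in control, a log2 change of 1.82 ± 0.62 (edgeR, Benjamini-Hochberg adjusted p = 0.264).

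Snora28, in Eif5, held 185, 128 and 95 counts in heat lung and 70, 74 and 71 in recovery, against 87, 98 and 88 in control. Its level was 3.55 ± 0.558 CPM in heat lung and 1.85 ± 0.0261 in recovery lung, against 2.35 ± 0.615 in control lung, and the log2 change with heat was 0.60 ± 0.22 (edgeR, Benjamini-Hochberg adjusted p = 0.118). In muscle the levels were 6.06 ± 0.985 CPM in heat and 4.35 ± 0.685 in recovery, against 4.23 ± 1.15 in control. In blood they were 5.78 ± 2.08 CPM in heat and 4.08 ± 0.476 in recovery, against 4.08 ± 1.42 in control (n = 2 each). The heat mean was the highest in each tissue, by less than 1 doubling, and no change from control passed.

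Setting a row against its host gene shows whether the row's counts grew in step with the host's. Snord14c and Snord14d together held 4.01, 2.80 and 8.28 counts per 1000 Hspa8 counts in heat lung and 1.55, 0.961 and 1.88 in recovery, against 1.42, 1.32 and 0.427 in control. In muscle they held 5.62, 2.33 and 6.31 in heat and 0.411, 0.825 and 0.225 in recovery, against 0.833, 1.07 and 0.717 in control. In blood they held 3.85 and 2.55 in heat and 3.93 and 1.35 in recovery, against 4.07 and 2.47 in control. So the rows grew more than their host in lung and muscle and in about the same proportion in blood. Hspa8 itself stood at 1282 ± 458 CPM in heat lung and 405 ± 66.6 in control lung, a log2 change of 1.66 (edgeR, Benjamini-Hochberg adjusted p = 0.0123). In muscle it stood at 1818 ± 85.5 CPM in heat and 1557 ± 430 in recovery, against 781 ± 197 in control, with a log2 change with heat of 1.19 that did not pass (edgeR, Benjamini-Hochberg adjusted p = 0.0674).

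In recovery muscle the U14 rows were near their control level while the mean of their host was not, and this difference was not tested. Hspa8 in recovery differed from heat by a log2 change of -0.20 there (edgeR, Benjamini-Hochberg adjusted p = 0.633), while the summed Snord14c and Snord14d counts differed by -3.40 ± 0.59 (edgeR, Benjamini-Hochberg adjusted p = 0.0511). Neither change passed. Snora15 held 1.77, 1.62 and 0.709 counts per 1000 Cct6a counts in recovery muscle, against 10.4, 5.21 and 12.7 in heat muscle, and 4.97, 3.22 and 3.17 in control muscle. All 3 recovery libraries lay under all control ones on that ratio. In lung the Snora15 ratio was 9.45, 14.1 and 10.99 in heat and 7.31, 2.65 and 7.86 in recovery, against 7.14, 5.59 and 5.41 in control. These ratios carry no test, and whether they reflect the stability of an intron, of the mature RNA or of the host mRNA was not tested.

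For Snora31 the ratio to Tpt1 was 3.67, 1.69 and 5.26 counts per 1000 host counts in heat lung and 1.37, 1.39 and 0.748 in recovery lung, against 1.43, 2.60 and 1.17 in control lung. In muscle it was 1.75, 1.06 and 2.13 in heat and 0.866, 0.712 and 0.747 in recovery, against 0.580, 1.12 and 1.13 in control. In blood it was 1.88 and 1.43 in heat and 0.193 and 0.531 in recovery, against 0.561 and 0.526 in control. The heat libraries were above the recovery ones in each tissue and above the control ones in blood, while 1 heat library lay inside the control range in lung and in muscle. For Snora28 over Eif5 in lung the heat libraries lay above the recovery ones and the control libraries spanned both: the ratio was 28.5, 28.6 and 20.4 in heat and 20, 19.3 and 19.1 in recovery, against 26.0, 33.5 and 16.7 in control. Tpt1 changed with heat in lung by a log2 change of 0.17 (edgeR, Benjamini-Hochberg adjusted p = 0.261), and Eif5 rose by 0.56 (edgeR, Benjamini-Hochberg adjusted p = 0.0199).

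**Figure D3:**
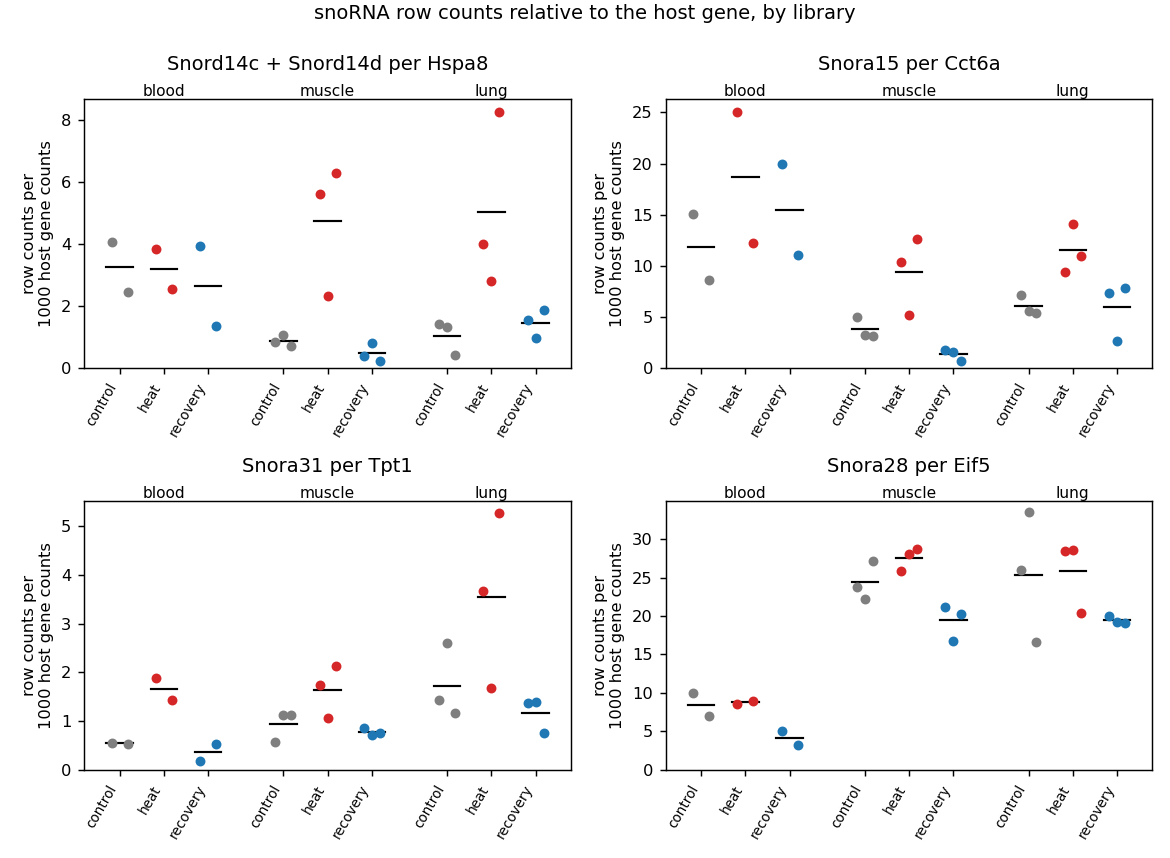
Counts of a snoRNA row per 1000 counts of its host gene in each library, for Snord14c and Snord14d together over Hspa8, Snora15 over Cct6a, Snora31 over Tpt1 and Snora28 over Eif5. Points are libraries and bars are group means. The heat libraries of muscle stand above the others for Snord14c and Snord14d (2.33 to 6.31, against at most 1.07), while blood shows no such gap.

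Most other rows tested did not change detectably with heat. In lung, Snora16a held 23, 16 and 20 counts in heat and 11, 17 and 13 in recovery, against 7, 8 and 9 in control, a log2 change of 1.38 that fell short of the threshold (edgeR, Benjamini-Hochberg adjusted p = 0.0591). It matched 2 annotated transcripts, so no sequence or host is given. In heat muscle the tested box C/D rows were mostly low: 18 of 21 had a log2 change below 0. Their median was -0.63, against -0.05 over all rows tested, while the 17 box H/ACA rows had a median of 0.06. The share of all rows below 0 is not given here. None of those 18 passed by edgeR, while DESeq2 called 1 snoRNA row lower and 4 higher in heat muscle, and 2607 of all 17746 rows. The well counted Snord17 had a log2 change of -1.04 ± 0.38 (edgeR, Benjamini-Hochberg adjusted p = 0.131). Snord17 held 47, 26 and 40 counts in heat muscle and 119, 43 and 52 in recovery, against 90, 111 and 57 in control. Markers of other cell types were lower in the same heat libraries. Of the B cell markers 4 of 4 had a lower mean, and their sum was 1.38 to 11.4 CPM in heat and 30.05 to 97.6 in control. Of the T cell markers 4 of 4 did, at 0.0813 to 1.62 CPM in heat and 7.64 to 34.3 in control, and of the adipocyte markers 3 of 3, at 6.50 to 109 CPM in heat and 121 to 497 in control. Ms4a1, Cd3e, Cd3d and Cd8a were each at 0 in 1 heat library. Their part in the box C/D values was not tested.

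The heat response was compared between muscle and lung by an interaction term over all 9 mouse groups. Of 82 rows tested there, 0 were called by edgeR, and DESeq2 called 0 as well, while edgeR called 0.0443% of 22592 rows, 0.0221% in each direction. At an unadjusted p under 0.05 there were 14 of the 82 rows, against 17.7% of all rows in either direction. Each of the 14 had an interaction below 0, and the share of all rows below 0 at that p is not given here. The median interaction of the 82 rows was -0.50, against -0.10 over all rows. For the heat rows the differences, muscle minus lung, were small beside their errors: -0.11 ± 0.99 for Snord14c, -0.69 ± 1.10 for Snord14d, 0.53 ± 0.61 for Snora15 and 0.10 ± 0.67 for Snora31 (edgeR, Benjamini-Hochberg adjusted p between 0.669 and 0.990). The largest by p was Snora16a at -2.13 ± 0.52 (edgeR, Benjamini-Hochberg adjusted p = 0.121), followed by Snord104 at -3.19, a row with at most 11 counts in any library.

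After 4 h of recovery the rows raised by heat were low again. In lung, 5 of the 55 rows fell in recovery against heat and 0 rose, while 5.84% of all rows tested fell and 5.46% rose, 11.3% in either direction. The rows that fell were Snord14c at a log2 change of -4.76 ± 0.74, Snord14d at -4.70 ± 0.85, Snora28 at -0.94 ± 0.22, Snora15 at -1.72 ± 0.41 and Snora31 at -1.61 ± 0.45 (edgeR, Benjamini-Hochberg adjusted p = 0.00475, 0.0122, 0.0202, 0.0221 and 0.0413). With 1 lung library left out at a time, Snord14c was called in 9 of 9 fits, Snord14d in 7, Snora15 in 6, Snora28 in 5 and Snora31 in 2, and between 1 and 6 rows were called in all (1 without recovery 1 or recovery 2, 2 without heat 1). Hspa8, Cct6a and Eif5 also fell, with log2 changes of -2.78, -0.79 and -0.55, while Tpt1, the host of Snora31, differed by only -0.03 (edgeR, Benjamini-Hochberg adjusted p = 0.854). In muscle, 1 of 38 rows fell, while 0.186% of all rows fell and 0.282% rose, 0.468% in either direction. It was Snora15, at -3.07 ± 0.50 (edgeR, Benjamini-Hochberg adjusted p = 0.0477), and it was called in 1 of the 9 fits that leave out 1 muscle library, that without heat 2. Snord14d at -3.14 and Snord14c at -3.96 did not pass there (edgeR, Benjamini-Hochberg adjusted p = 0.0567 and 0.0849). In blood, 0 of 64 rows were called in recovery against heat by edgeR or by DESeq2, and 7 had an unadjusted p under 0.05, as did 24.2% of all rows. Of all rows, 3.99% were called by edgeR in either direction. The summed Snord14c and Snord14d counts differed by -2.43 ± 0.57 in blood (edgeR, Benjamini-Hochberg adjusted p = 0.0740), and Snora31 by -2.002 (edgeR, Benjamini-Hochberg adjusted p = 0.136). These comparisons share their heat libraries with those against control.

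Against control, recovery left no snoRNA row called by edgeR in any tissue. In lung 0 of 55 rows passed, against 0.0309% of all rows (0.0206% higher and 0.0103% lower), and DESeq2 called 0. At an unadjusted p under 0.05 there were 2, Snora5c and Snora17 at 1.30 and 0.73, against 7.14% of all rows. In muscle 0 of 38 passed, against 0.0676% of all rows. At an unadjusted p under 0.05 there was 1, against 4.95% of all rows, and DESeq2 called 0. That row was Snora52 at 1.82, which held 19, 13 and 24 counts in recovery and 7, 5 and 4 in control. Snora52 lies in Rplp2, which encodes an acidic protein of the large ribosomal subunit stalk. In blood 0 of 64 passed and 0% of all rows did, with 3 at an unadjusted p under 0.05, against 8.93% of all rows, and 0 by DESeq2, which called 62 of all rows.

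The lowest p values in recovery blood belonged to U3. The 4 Snord3 rows, near-identical copies of the U3 RNA that is needed for the early cuts releasing 18S rRNA, summed to 324 and 473 counts in heat blood and 271 and 170 in recovery blood, against 608 and 490 in control blood. As levels these were 14.7 and 19.95 CPM in heat and 13.2 and 11.4 in recovery, against 30.02 and 20.4 in control. Both recovery libraries were the lowest, but the log2 change from control of -1.01 ± 0.24 did not pass (edgeR, Benjamini-Hochberg adjusted p = 0.544). In lung the summed U3 counts were 146, 99 and 12 in heat and 124, 131 and 123 in recovery, against 113, 54 and 160 in control, so replicate 3 of heat lung stood far below the other libraries. In muscle they were 104, 43 and 76 in heat and 180, 70 and 68 in recovery, against 88, 92 and 124 in control. Snord3b2 and Snord3b4 held nearly the same counts in heat muscle, 34, 11 and 24 against 34, 12 and 24. In heat blood they held 50 and 118 against 59 and 94. Whether a read was counted in more than 1 U3 row was not tested, so the sums may hold the same reads repeatedly. U8 (Snord118), known from frog oocytes to act in the maturation of 5.8S and 28S rRNA, held 83 and 143 counts in heat blood and 33 and 28 in recovery blood, against 135 and 45 in control blood. As CPM these were 3.76 and 6.03 in heat and 1.60 and 1.87 in recovery, against 6.66 and 1.87 in control. The control libraries were far apart, and one lay at the level of the recovery libraries. The 4 neutrophil markers, none at 0 in any blood library, differed across the same groups, summing to 1023 to 1157 CPM in heat and 306 to 427 in recovery, against 582 to 649 in control. The 5 erythroid markers, also at 0 in no blood library, summed to 543485 to 1336220 TMM-scaled CPM in heat and 1153980 to 1351770 in recovery, against 598454 to 833013 in control, where sums above the library total arise from TMM factors below 1. The part of either list in these values was not tested.

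Across all rows with a host in the fit, direction followed the host only loosely. With heat, 28 of 46 lung rows, 15 of 30 muscle rows and 24 of 54 blood rows moved the same way as their host. Pearson's r between the log2 change of row and host, across rows of the same libraries, was 0.77 in lung, 0.80 in muscle and 0.59 in blood. Without Snord14c and Snord14d, which share a host, r was 0.24 in lung (n = 44), 0.59 in muscle (n = 28) and 0.42 in blood (n = 52). These are descriptions across genes that share libraries and are not independent. Of the 65 host genes tested in lung, 6 rose with heat and 0 fell, while 3.14% of all rows rose and 2.72% fell. The 6 were the non-coding 1110038B12Rik at 2.67, Hspa8 at 1.66, the chaperonin subunit genes Cct6a at 0.60 and Tcp1 at 0.37, Eif5 at 0.56 and the nuclear import receptor gene Ipo7 at 0.42. Snord52, a row in 1110038B12Rik, is named after its values were seen. It held 45, 8 and 25 counts in heat lung, against 7, 1 and 5 in control. In muscle it held 7, 3 and 14 counts in heat, against 15, 3 and 4 in control. In blood it held 43 and 19 counts in heat, against 2 and 9 in control. Its log2 change with heat in blood was 2.51 ± 0.99 (edgeR, Benjamini-Hochberg adjusted p = 0.324). No host was called in muscle with heat, where 0.428% of all rows were called.

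**Figure D4:**
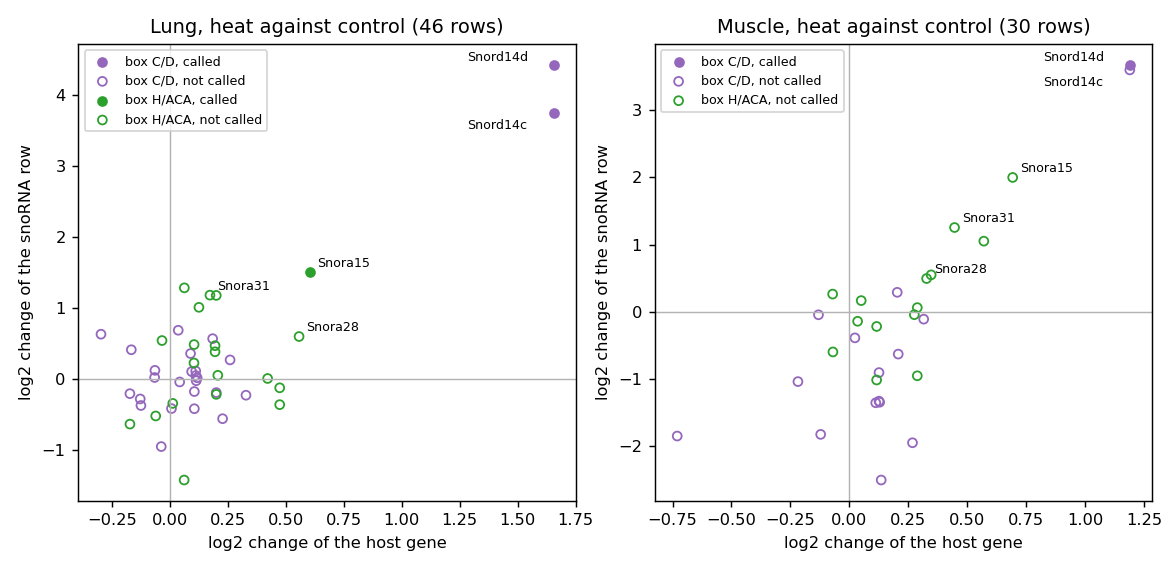
Log2 change with heat of each snoRNA row against that of its host gene, in lung (46 rows) and muscle (30 rows). Filled points passed the test on the row and open points did not. Snord14c and Snord14d lie far above the other rows, with their host Hspa8 at 1.66 in lung and 1.19 in muscle.

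No gene for the proteins that carry snoRNAs was called between conditions. Of 22 snoRNP protein and assembly factor genes tested, among them Fbl, Nop56, Nop58, Dkc1, Nhp2, Nop10 and Gar1, 0 were called by edgeR or by DESeq2 in any tissue, and 0 to 4 had an unadjusted p under 0.05 in each comparison. Among all rows, edgeR called 0% to 11.3% by comparison and DESeq2 called 62 to 3105 rows. An unadjusted p under 0.05 was reached by 879 of all 17746 rows in muscle recovery against control and by 5318 in muscle with heat. In most comparisons few calls among 22 genes would be usual. Of 20 non-coding host genes tested in lung (18 in blood), such as Gas5 and the Snhg genes, 1 was called between conditions: Snhg17 rose in lung in recovery against heat by 0.60 (edgeR, Benjamini-Hochberg adjusted p = 0.0295), where 5.46% of all rows rose. In muscle with heat their median log2 change was -0.76, against -0.05 over all rows, and in recovery against heat it was 0.94, with 0 called by edgeR. At an unadjusted p under 0.05 there were 10 and 11 of the 20 in these muscle comparisons, against 5318 and 3494 of all 17746 rows. DESeq2 called 6 and 7 of them, and 2607 and 1211 of all rows. Other structured small RNA rows, such as spliceosomal and 7SK RNA rows, had 15 members tested in lung, 13 in muscle and 16 in blood, and 0 were called between conditions by edgeR. At an unadjusted p under 0.05 there were 0 to 3 in each comparison, and DESeq2 called at most 2. The values over all rows given above for the snoRNP protein genes hold for these comparisons too. Rows of well-known multi-snoRNA hosts were too low to follow. Snord32a and Snord35a, in the ribosomal protein gene Rpl13a, held 0 to 13 counts per library, Snord47, in Gas5, held 0 to 6, and Snord22, in Snhg1, held 1 to 24.

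At baseline the snoRNA rows that passed the filter were mostly higher in blood than in lung and muscle with TMM scaling. Of 69 rows tested in the control libraries, 33 were higher and 1 was lower in blood than in lung (edgeR, Benjamini-Hochberg adjustment over 21186 rows). Among all rows, 28.8% were higher and 35.2% lower in blood, 64.0% in all. The median log2 difference was 1.17, against -0.11 over all rows, and it was 1.36 in box C/D rows (22 higher and 1 lower of 42) and 0.91 in box H/ACA rows (11 higher of 27). Against muscle, 32 rows were higher and 1 lower in blood, while 30.1% of all rows were higher and 39.7% lower, 69.9% in all. The median there was 1.11, against -0.25. Few rows differed between muscle and lung: 3 were higher and 1 lower in muscle, against 29.8% and 30.4% of all rows and 60.2% in all, with a median of 0.02 against -0.07. With 1 control library left out at a time, 19 to 36 rows were called between blood and lung (19 without blood 3, 20 without blood 1, 21 without lung 3, 22 without lung 2) and 0 to 4 between muscle and lung (0 without lung 3, 1 without lung 1). A row could pass the filter on low counts through the control blood libraries alone, as Snord3a did with under 10 counts in every control lung and muscle library, so these counts and medians describe the rows that passed and are no support for a general difference. This limit may also hold for single rows named below that were low outside blood, such as Snord118 and Snora16a. With the stricter filter (20 counts in every library of a group), 20 rows were higher and 0 lower in blood than in lung. The control blood libraries alone can meet that filter too, so the same limit holds, and the share of all rows under it is not given here.

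These tissue counts rest on the scaling. With library size alone in place of TMM, 6 rows were higher and 10 lower in blood than in lung (median -0.40, against -1.71 over all rows). On the same scaling 17 were higher and 3 lower in blood than in muscle (median 0.50, against -0.82), and 0 were higher and 24 lower in muscle than in lung (median -0.997, against -1.09). Between muscle and lung the split was 1 higher and 3 lower with edgeR's RLE size factors, and 2 and 2 by DESeq2. With TMM, other structured small RNA rows were also mostly higher in blood, with 14 of 17 higher and 0 lower in blood than in lung (median 1.47). Among all rows 28.8% were higher and 35.2% lower (median -0.11). Some of these small RNA rows may have passed the filter through blood alone, such as Rnu12 at 4.00 and 1.79 CPM in control blood and at most 0.338 in control lung. Their counts with library size alone are not given here.

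U8 showed a wide gap between tissues. Snord118 held 135 and 45 counts in the control blood libraries, against 4, 4 and 0 in control muscle and 7, 5 and 13 in control lung. The log2 difference was 5.39 ± 0.77 from muscle and 4.39 ± 0.68 from lung (edgeR, Benjamini-Hochberg adjusted p = 0.000286 and 0.000541). With library size alone it was 4.69 and 2.71. With 1 control library left out at a time it was 4.21 to 6.04 from muscle and 3.20 to 5.03 from lung, called in 8 of 8 fits in each. The row may have passed the filter through blood, where it is high, so these calls are no support for a general difference. The U3 rows were also higher in blood: Snord3b3 held 273 and 199 counts in control blood, against 29, 30 and 42 in control muscle and 43, 26 and 60 in control lung. Its log2 difference was 3.10 from muscle and 3.39 ± 0.33 from lung (edgeR, Benjamini-Hochberg adjusted p = 5.31e-05 and 3.8e-05), or 2.52 and 1.75 with library size alone. Summed, the 4 U3 rows differed from lung by 3.28 ± 0.34 (edgeR, Benjamini-Hochberg adjusted p = 5.02e-05). The U3 rows may share reads, so they are not separate pieces of evidence.

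Other snoRNAs with known roles in making 18S rRNA were also counted. Snora73a and Snora73b, the U17 copies whose yeast counterpart snR30 is needed for 18S rRNA, held 68 and 52, and 90 and 132 counts in control blood, against 48, 50 and 83, and 108, 79 and 139 in control lung. Their log2 differences from lung were 0.92 ± 0.34 and 0.91 ± 0.26 (edgeR, Benjamini-Hochberg adjusted p = 0.0393 and 0.0130), and the sign turned to -0.72 and -0.68 with library size alone. Snord22 (U22), which acts in 18S rRNA formation in frog, differed from lung by 1.76 (edgeR, Benjamini-Hochberg adjusted p = 0.0331) on 10 and 20 counts in blood, against 10, 7 and 6 in lung, and by 0.20 with library size alone. U13 (Snord13), which in human cells guides acetylation of 18S rRNA, held 9 and 4 counts in control blood, against 0, 0 and 0 in control muscle and 5, 3 and 11 in control lung.

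Snord17 and Snora16a were also higher in blood with TMM scaling. Snord17 held 196 and 212 counts in control blood, against 90, 111 and 57 in control muscle and 100, 69 and 109 in control lung, at log2 differences of 1.56 and 2.02 ± 0.24 (edgeR, Benjamini-Hochberg adjusted p = 0.000426 and 0.000117). With library size alone the difference from lung was 0.40 and did not pass. Snora16a held 31 and 33 counts in control blood, against 7, 7 and 7 in control muscle and 7, 8 and 9 in control lung, at 2.47 and 2.85 ± 0.36 (edgeR, Benjamini-Hochberg adjusted p = 0.000344 and 0.000166), and passed on both scalings. The row lower in blood than in lung was Snord123, in Snhg18, with 1 and 0 counts in blood against 9, 4 and 18 in lung. The row lower in blood than in muscle was Snora30, in Srcap, with 27 and 15 counts in blood against 49, 51 and 62 in muscle, a log2 difference of -1.06 ± 0.40 (edgeR, Benjamini-Hochberg adjusted p = 0.0418).

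**Figure D5:**
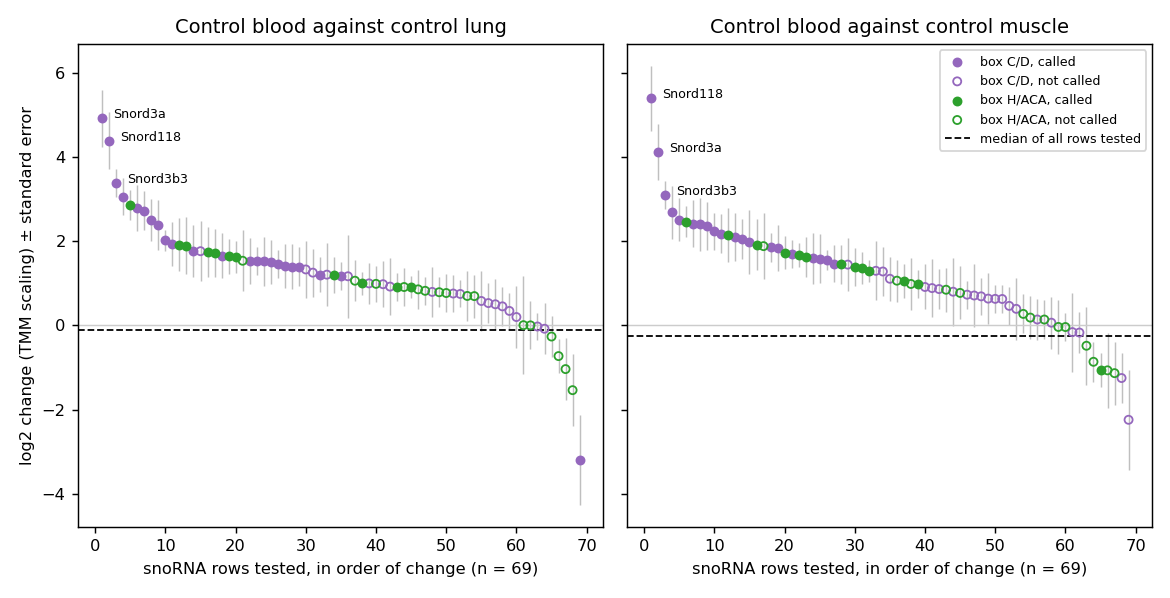
Log2 difference of each of the 69 tested snoRNA rows between control blood and control lung (left) and between control blood and control muscle (right), with TMM scaling, ordered by size. Bars are standard errors, filled points passed the test, and the dashed line is the median of all rows tested. Most rows lie above that median, with Snord118, Snord3a and Snord3b3 at the top.

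The rows that differed between muscle and lung were Snora5c, Snora28 and Snord99, higher in muscle, and Snord8, lower. Snora5c lies in Tbrg4, a mitochondrial RNA-binding protein gene, and held 6, 15 and 22 counts in control muscle, against 3, 7 and 7 in control lung, a log2 difference of 1.93 ± 0.61 (edgeR, Benjamini-Hochberg adjusted p = 0.0228). Snora28 differed by 0.86 ± 0.31 (edgeR, Benjamini-Hochberg adjusted p = 0.0368), and by -0.20 with library size alone. Snord99, in Snhg12, differed by 1.17 ± 0.43, and Snord8, in the chromatin remodeller gene Chd8, by -1.30 ± 0.43 (edgeR, Benjamini-Hochberg adjusted p = 0.0421 and 0.0286). Of these 4, only Snord8 passed in the same direction with library size alone. Across hosts, 49 of 57 rows had the sign of their host in blood against lung (r = 0.66), 41 of 57 in blood against muscle (r = 0.53) and 28 of 57 in muscle against lung (r = 0.36). In blood against lung, 61 of the 69 rows tested lay above 0, and 43 of the 57 pairs had a host called higher. Many shared signs would therefore be usual there without a link of each row to its host. Among the 22 snoRNP protein genes, 14 were higher and 1 lower in muscle than in lung, 8 higher and 1 lower in blood than in lung, and 6 higher and 10 lower in blood than in muscle, where 60.2%, 64.0% and 69.9% of all rows were called in the same order of comparisons.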

How the data were processed

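The authors deposited raw read counts per gene for each of the 24 mouse libraries. TRIzol was used to extract total RNA and a NEBNext Ultra Directional kit to build the libraries, per the labels' protocols. STAR 2.7 aligned the reads to GRCm39 and featureCounts counted them, per the submitters' processing notes. Its version, strand setting, treatment of multiply mapping reads and annotation release are not given in the sources used here. The bat table was not used here.

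Counts were tested as deposited with edgeR 4.0.16 (limma 3.58.1, R 4.3.3). filterByExpr removed low rows, with a minimum count of 10 and a minimum total of 15, and TMM set the scaling. The robust quasi-likelihood F test was used, with Benjamini-Hochberg adjustment over all rows tested and calls at an adjusted p under 0.05. Each tissue was fitted over its 3 conditions, the control libraries over their 3 tissues, and the interaction over all 9 mouse groups. Within a group no library was a copy of another. The fits were tested on simulated data. Alternatives were DESeq2 1.42.0, RLE size factors, library size alone, no filter, a stricter filter (20 counts in every library of a group), a replicate block, fits of only the groups compared, summed near-identical copies and each library left out. Library size alone and the summed copies were chosen after seeing the data.

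Hosts are the longest GENCODE M21 gene that holds the row on the same strand and is in the table, matched by symbol. Rows named are the 5 of each class with the highest mean CPM, up to 5 called rows per direction and comparison by p (or up to 2 where none was called), their hosts, the rows next to the minimum and those in Rpl13a, Snhg1 and Gas5. Snord14a, Snora73, Snord22, Snord13 and Snord96a were otherwise named for family, role or level, and rows named outside their own comparison were chosen after their values were seen. The rows and gene lists were chosen with earlier results of these data known. Python 3.11, pandas 2.3.3, scipy 1.17.1, biopython 1.88 and matplotlib 3.10.9 were used.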

Additional observations from a re-analysis of the deposited data

Results flagged for a closer look

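In 5 cases every heat or recovery library of one tissue lay above every control library of that tissue, and in another tissue every one lay below. The difference between the tissues was not tested in any of them. All 5 cases include blood, which has 2 libraries a group. Of the 64 snoRNA rows tested in blood, 46.9% had no overlap with control in heat and 34.4% in recovery. The share of all rows with such opposite cases is not given here, so whether 5 is many cannot be told. With heat, Snora16a changed by 1.38 on the log2 scale in lung and by -0.35 in blood, a difference of 1.73. With heat, Snord45b changed by -1.95 in muscle and by 1.05 in blood, a difference of -3.01, and Snora23 by 1.05 in muscle and by -0.40 in blood, a difference of 1.45. With recovery, Snora16a changed by 0.80 in lung and by -0.27 in blood, a difference of 1.08. With recovery, Snord3b2, a U3 row, changed by 0.47 in lung and by -1.05 in blood, a difference of 1.52. None of these changes passed within its tissue in edgeR after Benjamini-Hochberg adjustment.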

How the results depend on the processing

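The number of snoRNA rows called moved with the processing. In lung with heat (3 in the fit reported), 1 row was called with the replicate block and 0 when only the groups compared entered the fit. In muscle with heat (1), 5 were called by DESeq2 (which called 2607 of all 17746 rows, against 76 by edgeR), 0 with the replicate block, 0 with library size alone and 3 with only the groups compared. In muscle recovery against heat (1), 3 were called by DESeq2, 2 with no filter, and 0 with the replicate block, with library size alone and with only the groups compared. In blood recovery against heat (0), 3 were called with library size alone. In control muscle against lung (4), 2 were called with the replicate block and 24 with library size alone. In control blood against lung (34), 20 were called with the stricter filter, 22 with the replicate block and 16 with library size alone, and in blood against muscle (33), 20 with library size alone. Without Snora28 the box H/ACA rows took a plain CPM of 13.0 in muscle, against 16.9 with it, and 29.8 in lung, against 34.6. Snora28 in control muscle against lung reversed from 0.86 to -0.20 with library size alone. Leaving out 1 library at a time gave 0 to 6 calls in lung with heat (0 without control 1 or 3, 1 without heat 1 or control 2, 6 without heat 2), 0 to 0 in lung recovery against control and 1 to 6 in lung recovery against heat (1 without recovery 1 or 2, 2 without heat 1, 3 without recovery 3). It gave 0 to 5 in muscle with heat (5 without recovery 1, 0 without heat 1, heat 3, recovery 3 or any control), 0 to 0 in muscle recovery against control and 0 to 1 in muscle recovery against heat (1 without heat 2 only). In blood it gave 0 to 0 with heat, 0 to 0 in recovery against control and 0 to 1 in recovery against heat (1 without heat 2). It gave 0 to 4 in control muscle against lung (0 without lung 3), 19 to 36 in blood against lung (19 without blood 3), 23 to 31 in blood against muscle and 0 to 1 for the interaction (1 without muscle recovery 1). The causes were not tested, other than that fewer libraries entered these fits. Replicate numbers were not taken as pairing the libraries, since the labels do not tie them to animals and not every correlation of same-numbered deviations was over 0.1. These were -0.15 to 0.10 in lung, -0.43 to 0.52 in muscle and -0.04 to 0.59 in blood, and between tissues -0.01 to 0.21 in heat, 0.01 to 0.12 in recovery and -0.01 to 0.13 in control. Of the other values, 694 for single rows kept their direction and side of the threshold, 94 lost their call and 2 gained one. With library size alone the median log2 change of all rows moved to -0.43 in muscle with heat, -0.17 in blood with heat and -0.64 in blood recovery against control. A row with 10 counts has an exact Poisson interval of 4.80 to 18.4, which covers counting error only.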
